A study of Mus musculus with 7 samples.

Results

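The endoderm of the early embryo and the adult liver are both marked by a small set of transcription factors, and 8 of their genes were followed here across 7 samples: Sox17, Foxa1, Foxa2, Foxa3, Gata4, Gata6, Hnf4a and Hhex. They were taken by name, and all 8 were measured, by 15 probe sets, among the 18194 genes that had a probe set annotated to 1 gene alone. A probe set is a group of short oligonucleotides on the array that is read as 1 signal. Where a gene had several, the one that was brightest by its mean log2 signal across arrays gave the main value.

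Liver, Brain and Sk_muscle (skeletal muscle) were taken from male ICR mice more than 9 weeks old. End, Ect and Pme are the endoderm, ectoderm and paraxial mesoderm that were differentiated in culture from SK7, a male ES cell line, and SK7_ESC is that line undifferentiated. All 4 cultured samples carry the line's transgene, GFP under the Pdx1 promoter, and the labels give the ICR strain for every sample. RNA of each sample was hybridized to 1 Affymetrix array, so that there is no measure of spread, no test was possible, and the precision is limited by this number of arrays. The number of animals behind a tissue, and how the cells of a germ layer were selected, are not given in the sources used here. Liver and End differ in age and in growth in the animal or in the dish as well as in cell type, and these cannot be told apart.

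In the embryo, SOX17, a factor of the SOX family, and the zinc finger factors GATA4 and GATA6 act as the endoderm forms. FOXA1, FOXA2 and FOXA3 are forkhead factors that can bind their sites in closed chromatin, and FOXA1 and FOXA2 are needed together for the liver to start from the foregut. HHEX is a homeobox factor required for the liver bud to grow out, and HNF4A is a nuclear receptor that drives a large share of the genes of the mature hepatocyte. In the mouse most of these factors are also active in the primitive and visceral endoderm, the extraembryonic lining of the early embryo.

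Background was set at a signal of 50. Between arrays, higher or lower was called at a ratio of at least 2 after signals under 50 had been raised to 50. Where the dimmer signal was under 50 the ratio is a lower bound, given as "at least". The number of genes above background was lowest in Liver (7824) and highest in Brain (9086). End and Liver carried most of the marker genes listed for their labels, and these lists were chosen with earlier results of these data known. Of 12 genes of the definitive endoderm, 11 were above background in End and 0 in Liver, and of 20 measured hepatocyte genes, 19 were above background in Liver and 0 in End. Of 6 pluripotency genes, 2 were still above background in End, Nanog at 299.5 and Pou5f1 at 57.3, and all 6 were in SK7_ESC.

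Of the 8 factors, 7 were above background in Liver, where only Sox17 was under it, and all 8 in End, against 43.0% of all genes in Liver and 45.6% in End. Only Foxa2 passed in Ect, where 47.2% of all genes did. Foxa2, Gata4 and Gata6 passed in Pme and Sox17, Gata6 and Hhex in SK7_ESC, which is 37.5% of the factors in each, near the 47.4% of all genes in Pme and 44.4% in SK7_ESC. In Brain (49.9% of all genes) and in Sk_muscle (43.3%), Sox17 alone passed. The number in Liver was 6 after scaling to the same median and with the geometric mean over probe sets, and the number in End was 7 after quantile normalization and without probe sets that may share sequence. End was the brightest array for 6 factors and Liver for the other two, Foxa3 and Hnf4a.

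**Figure D1:**
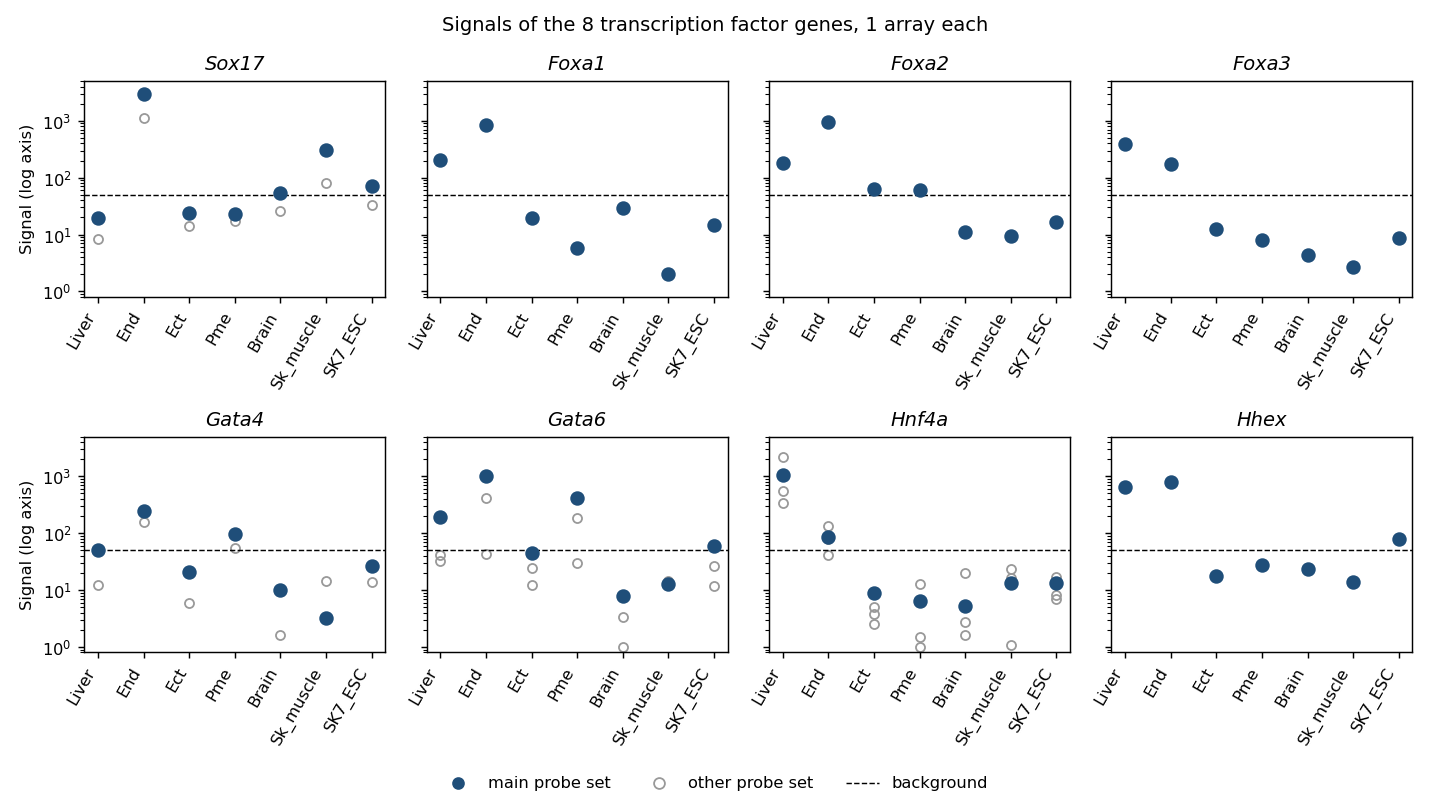
Signal (log axis) of each of the 8 factors on each of the 7 arrays, 1 array per group, with the main probe set as filled and other probe sets as open circles, the background of 50 as a dashed line, and signals under 1 drawn at 1. Sox17, Foxa1, Foxa2, Gata4, Gata6 and Hhex peaked in End, and Foxa3 and Hnf4a in Liver.

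Promoter sequences are shown for 3 FOXA genes and Hnf4a, because they cover a pair with nearly the same pattern (Foxa1 and Foxa2), the pair that was brighter in Liver (Foxa3 and Hnf4a), and a gene with separate promoters. The promoters of 5 of the 8 genes, with 8 transcription starts, were taken from RefSeq for GRCm38.p6. Those of Sox17, Gata4 and Gata6 were not used here, that of Gata6 because of its chromosome. The motif counts do not cover these genes. Each runs from 250 bases before a start to 50 after it, and positions are counted from the start. Capitals mark matches, on either strand, to letters that FOXA factors (TGTTTAC) and factors of the GATA family (AGATAA) are known to bind. The windows are chr12:57546062-57546361 (minus strand) for Foxa1, chr2:148045415-148045714 (minus strand) for 1 of the 3 starts of Foxa2, chr7:19023490-19023789 (minus strand) for Foxa3, and chr2:163506607-163506906 and chr2:163546905-163547204 (plus strand) for the upstream and the downstream start of Hnf4a.
Foxa1: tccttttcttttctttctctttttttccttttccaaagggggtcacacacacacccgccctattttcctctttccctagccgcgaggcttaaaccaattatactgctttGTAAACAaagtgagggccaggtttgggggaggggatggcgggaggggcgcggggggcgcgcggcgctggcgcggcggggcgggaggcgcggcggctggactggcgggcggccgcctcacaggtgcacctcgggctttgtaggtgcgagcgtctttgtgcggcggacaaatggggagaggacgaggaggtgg
Foxa2: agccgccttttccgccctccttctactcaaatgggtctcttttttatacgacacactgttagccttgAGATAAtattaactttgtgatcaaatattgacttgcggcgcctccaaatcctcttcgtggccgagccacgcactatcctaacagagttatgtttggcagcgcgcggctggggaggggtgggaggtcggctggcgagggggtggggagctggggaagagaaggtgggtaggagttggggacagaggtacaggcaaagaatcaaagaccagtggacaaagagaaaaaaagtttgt
Foxa3: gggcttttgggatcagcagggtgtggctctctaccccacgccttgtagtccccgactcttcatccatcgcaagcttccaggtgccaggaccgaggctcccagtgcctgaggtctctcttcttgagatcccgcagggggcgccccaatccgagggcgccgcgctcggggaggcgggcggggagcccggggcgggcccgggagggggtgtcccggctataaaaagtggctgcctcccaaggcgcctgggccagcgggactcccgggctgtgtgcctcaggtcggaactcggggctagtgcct
Hnf4a upstream: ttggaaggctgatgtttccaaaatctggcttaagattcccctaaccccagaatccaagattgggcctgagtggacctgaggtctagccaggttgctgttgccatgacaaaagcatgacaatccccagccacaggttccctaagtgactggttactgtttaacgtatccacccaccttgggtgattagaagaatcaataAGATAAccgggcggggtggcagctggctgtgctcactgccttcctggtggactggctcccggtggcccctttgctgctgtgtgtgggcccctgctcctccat
Hnf4a downstream: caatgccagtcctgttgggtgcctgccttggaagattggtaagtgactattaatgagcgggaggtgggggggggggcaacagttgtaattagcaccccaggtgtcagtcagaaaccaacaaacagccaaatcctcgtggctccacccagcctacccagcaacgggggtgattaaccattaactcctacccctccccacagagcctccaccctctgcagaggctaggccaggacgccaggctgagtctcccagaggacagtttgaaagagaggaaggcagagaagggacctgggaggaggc

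The FOXA letters were in 1 of the 8 promoters, that of Foxa1 at -141 on the minus strand, and in 3.65% of all 32851 promoters of this length. The GATA letters were in 2 of the 8 promoters, and 11.2% of all promoters hold them. They were at -183 in the Foxa2 window shown and at -52 before the upstream start of Hnf4a. The windows of the other Foxa2 starts and of the downstream Hnf4a start do not hold them. These matches are letters in a window and not measured sites. The letters searched for HNF4 (CAAAGTCCA, in 0.475% of promoters) and for SOX factors (ACAATGG, in 3.66%) were in 0 of the 8. No motif searched overlaps another in these windows.

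The windows also differ in CpG content. The Hhex promoter had 37 CpG and those of Foxa1 and Foxa3 had 26 and 22, against a median of 7 over all promoters. Both Hnf4a windows had 4. The Hnf4a starts lie 40298 bases apart, and the arrays do not tell which of them was used in End or in Liver.

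Sox17, which drives the formation of definitive endoderm, had a signal of 19.3 in Liver, 2941.7 in End, 23.8 in Ect, 23.1 in Pme, 53.9 in Brain, 303.0 in Sk_muscle and 70.7 in SK7_ESC. Its signal in End stood far above all other arrays, Sk_muscle came next, and Liver was the lowest. Its other probe set had 8.3 in Liver, 1137.7 in End, 82.0 in Sk_muscle and under 50 in the other arrays. Sox17 was at least 58.8-fold lower in Liver than in End with the main probe set and at least 22.8-fold lower with the other. With the geometric mean of both it was at least 36.6-fold lower. The identifiers of both Sox17 probe sets, of the Foxa3 probe set and of 2 of the 4 Hnf4a probe sets, the main one among them, mark sequence that may be shared between transcripts, so that leaving out such probe sets was no check of Sox17 or Foxa3.

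Gata6, which acts with Gata4 in the endoderm and in the heart, had 196.6 in Liver, 999.7 in End, 45.5 in Ect, 408.6 in Pme, 8.0 in Brain, 13.0 in Sk_muscle and 60.6 in SK7_ESC. End was highest, then Pme and then Liver, and Brain and Sk_muscle were under background. A second probe set had 41.3 in Liver, 408.4 in End and 183.6 in Pme, and the third was under 50 on every array, at most 43.2. Gata6 was 5.08-fold lower in Liver than in End with the main probe set and at least 8.17-fold lower with the second.

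Gata4 had 50.9 in Liver, 247.7 in End, 20.5 in Ect, 98.6 in Pme, 9.9 in Brain, 3.2 in Sk_muscle and 26.5 in SK7_ESC. It had the same order of its brightest arrays as Gata6, with Liver at the level of background. Its other probe set had 12.5 in Liver, 155.8 in End and 54.1 in Pme. Gata4 was 4.87-fold lower in Liver than in End with the main probe set and at least 3.12-fold lower with the other.

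Foxa1 had a signal of 208.3 in Liver, 828.1 in End, 19.5 in Ect, 5.7 in Pme, 28.9 in Brain, 2.0 in Sk_muscle and 14.6 in SK7_ESC. Foxa2 had 182.9 in Liver, 958.2 in End, 64.0 in Ect, 59.5 in Pme, 10.9 in Brain, 9.3 in Sk_muscle and 16.5 in SK7_ESC. Both were highest in End and next in Liver, and of the pair only Foxa2 was above background in Ect and Pme. In Liver, Foxa1 was 3.98-fold and Foxa2 5.24-fold lower than in End.

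Foxa3, the third FOXA gene and a regulator of hepatocyte genes, had 383.2 in Liver, 173.6 in End, 12.4 in Ect, 8.0 in Pme, 4.3 in Brain, 2.7 in Sk_muscle and 8.8 in SK7_ESC. Unlike Foxa1 and Foxa2 it was 2.21-fold higher in Liver than in End. Of the factors called between Liver and End, only Foxa3 had a ratio under 3, and it was not called after each array was scaled to the same median (1.84). Each FOXA gene was read by 1 probe set.

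Hhex had 653.7 in Liver, 791.5 in End, 17.8 in Ect, 27.8 in Pme, 23.7 in Brain, 14.0 in Sk_muscle and 79.7 in SK7_ESC. It was the one factor with nearly the same signal in both, with a ratio of 0.826 in Liver over End, and was called neither higher nor lower. Its signal in SK7_ESC, a little above background, was the next highest.

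Hnf4a had 1053.7 in Liver, 86.8 in End, 9.0 in Ect, 6.5 in Pme, 5.3 in Brain, 13.4 in Sk_muscle and 13.4 in SK7_ESC. Liver was far above End, and the other arrays were under background. The other probe sets had 560.5, 2223.7 and 338.2 in Liver, against 78.0, 133.3 and 40.7 in End, and every one of the 4 was under 50 in the other 5 arrays. Hnf4a was 12.1-fold higher in Liver than in End with the main probe set, and 7.19-fold, 16.7-fold and at least 6.76-fold higher with the others. After quantile normalization a probe set that is dimmer in Liver became the main one, and the ratio was at least 7.14.

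In Liver, 2 of the 8 were higher than in End (Hnf4a and Foxa3), 5 were lower (Sox17, Foxa2, Gata6, Gata4 and Foxa1) and Hhex was neither. Of all genes, 11.3% were called higher and 16.1% lower. The median log2 ratio of the 8 was -2.14, against 0.00 over all genes. Of all genes, 8337 were under background in both arrays and so had a log2 ratio of 0, and of the factors 0 were. By probe set, 5 of the 15 were higher, 8 were lower and 2 were neither, and no gene had probe sets called in opposite directions. Over the 9857 genes above background in Liver or End, the median log2 ratio was taken without raising signals under background to it. It was -0.39 as deposited, -0.23 after quantile normalization and -0.65 after scaling to the same median. These medians are therefore not directly comparable with the -2.14 of the factors, for which low signals were raised. No called factor changed direction under either scaling.

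**Figure D2:**
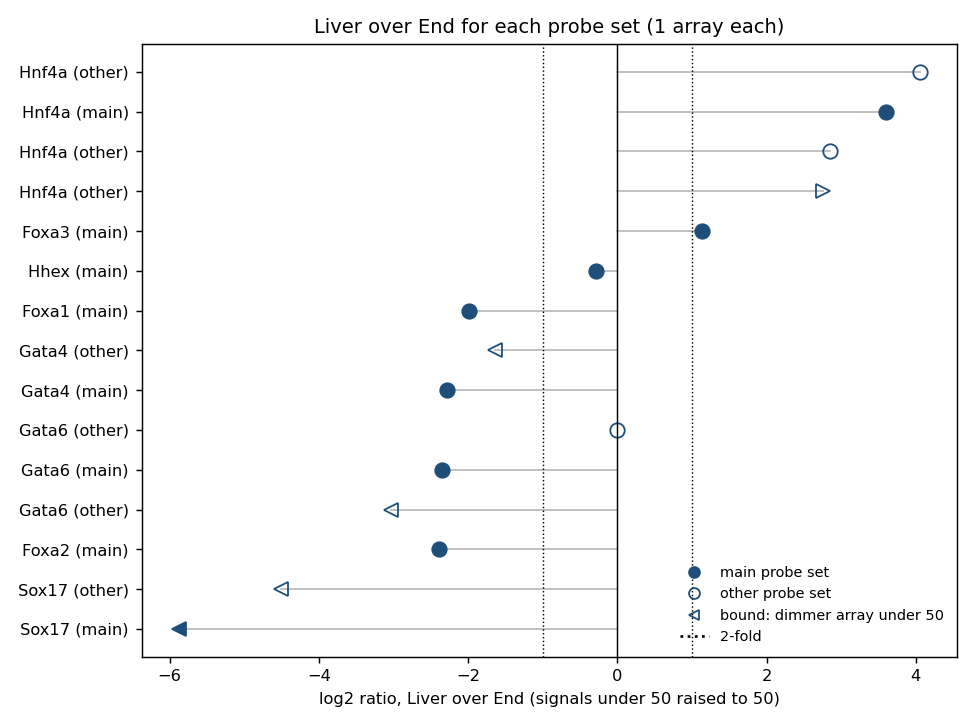
Log2 ratio of Liver over End for each probe set of the 8 factors, after signals under 50 were raised to 50 (1 array per group, no error bars), with lower bounds as triangles and the 2-fold limits dotted. All 4 Hnf4a probe sets lie to the right of 0, and the called probe sets of Sox17, Foxa1, Foxa2, Gata4 and Gata6 lie to the left.

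Other liver transcription factors did not share the signal in End. Of 15 listed, 13 were measured, and all 13 were above background in Liver, against 2 in End. Of these 13, 11 were higher in Liver than in End, 0 were lower, and the median log2 ratio was 2.94. Cebpb, a bZIP factor of the liver's acute phase response, had 2021.0 in Liver and 54.8 in End, and was 36.9-fold higher. Creb3l3, a membrane-bound bZIP factor of lipid metabolism, had 1348.8 in Liver and 19.1 in End, at least 27.0-fold higher. Cebpa, which drives hepatocyte genes, had 993.3 in Liver and 5.5 in End, at least 19.9-fold higher, and Nr5a2, a nuclear receptor of bile acid synthesis, had 641.7 in Liver and 4.6 in End, at least 12.8-fold higher. Tbx3 and Nr1i2 were neither.

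The products of the hepatocyte and the genes of the early endoderm marked the ends of this comparison. Of the 20 hepatocyte genes measured, 18 were higher in Liver than in End. Alb, serum albumin, had 11977.1 in Liver and 9.3 in End. Of the 12 definitive endoderm genes, 10 were lower in Liver than in End and 0 were higher, with a median log2 ratio of -4.54. Cer1, an inhibitor secreted by the anterior endoderm, had 1.0 in Liver and 1083.0 in End. Cxcr4, a chemokine receptor used to sort definitive endoderm, had 13.9 in Liver and 1710.8 in End. Of the 12 genes, 2 were above background in Ect and 1 in Pme, and Cxcr4 was among them in both, at 781.4 and 165.6.

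**Figure D3:**
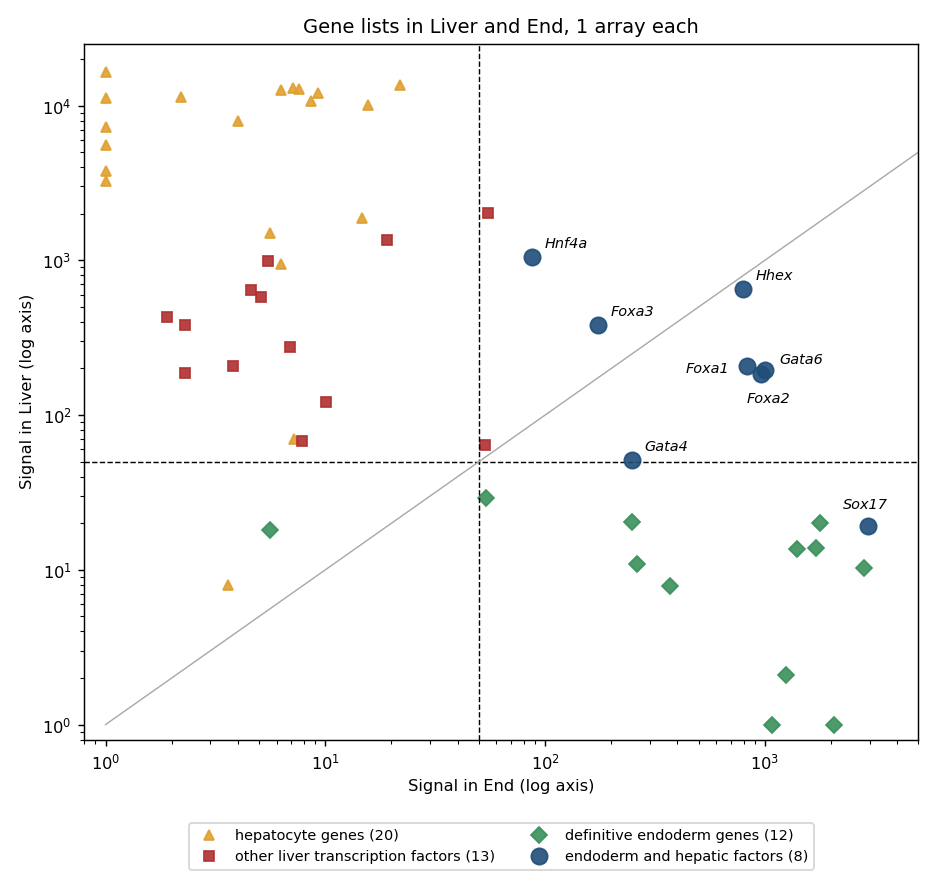
Signal in Liver against signal in End (log axes) for the 8 factors, 13 other liver transcription factors, 12 definitive endoderm genes and 20 hepatocyte genes, 1 point per gene, with signals under 1 drawn at 1, background dashed and equal signals on the grey line. Of the 8 factors, 7 are above 50 on both axes, and 11 of the 13 other liver factors are above 50 in Liver only.

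Liver is a mixed tissue, and in such bulk RNA fewer cells of a type and less RNA per cell cannot be told apart. All 5 Kupffer cell genes were above background in Liver (summed signal 1944, against 71.0 in End). So were 8 of 11 endothelial genes (summed signal 2073, against 193.8 in End, and median signal 78.8, against 5.90). The part of both cell types in the ratios of the factors was not tested.

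Against SK7_ESC, most of the factors were far higher in End. In End, 7 of the 8 were higher than in SK7_ESC, where 4.89% of all genes were higher and 3.81% lower, and 0 were lower. The median log2 ratio was 3.68. Over all genes it was 0.00, but 9186 of the 18194 were under background in both arrays, which alone sets that median. Of the factors, 0 were under background in both. Over the 9008 genes above background in End or SK7_ESC the median was also 0.00, taken without raising signals under background to it. Sox17 was 41.6-fold higher, Foxa2 at least 19.2-fold, Foxa1 at least 16.6-fold, Gata6 16.5-fold, Hhex 9.93-fold, Gata4 at least 4.95-fold and Foxa3 at least 3.47-fold. With the geometric mean of its probe sets Gata6 was at least 5.21-fold higher.

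Hnf4a was the exception, with 86.8 in End and 13.4 in SK7_ESC, a ratio of at least 1.74. Of its 4 probe sets, 1 was called higher, at least 2.67-fold. After quantile normalization, and without probe sets that may share sequence, Hnf4a was under background in both End and SK7_ESC. Of the other liver factors, 0 were higher in End than in SK7_ESC and 3 were lower, Cebpb, Nr5a2 and Tbx3. Nr5a2, also active in pluripotent cells, had 4.6 in End and 152.5 in SK7_ESC.

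**Figure D4:**
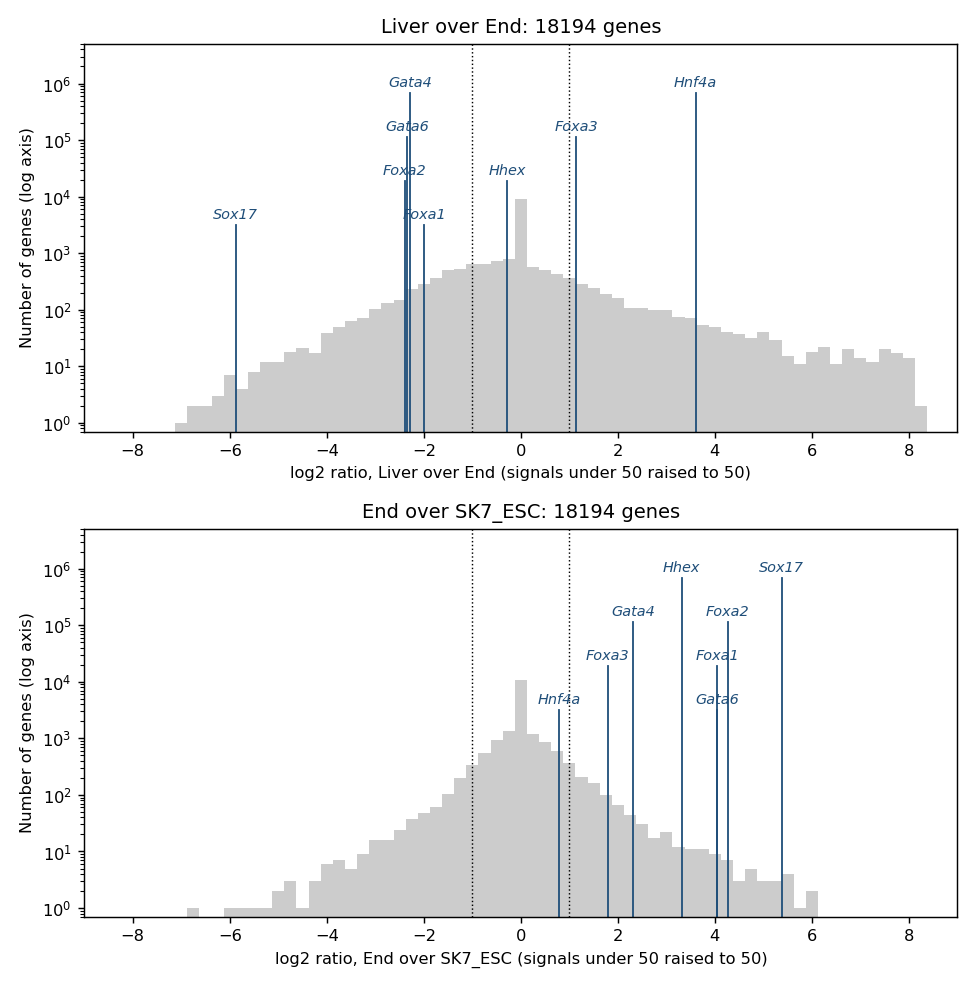
Number of genes (log axis) by log2 ratio over all 18194 genes, for Liver over End and for End over SK7_ESC, with the 8 factors as labelled lines whose height has no meaning and the 2-fold limits dotted (1 array per group). In End over SK7_ESC all 8 lines lie to the right of 0, and in Liver over End they lie on both sides of it.

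The genes of the definitive endoderm were higher in End with the factors, and most of those of the primitive and visceral endoderm were not. Over SK7_ESC, End had 9 of the 12 definitive endoderm genes higher and 0 lower. Of 14 primitive and visceral endoderm genes, 2 were higher, the basement membrane genes Lamb1 and Col4a1, and 6 were lower. The fall was not particular to End. Over SK7_ESC, where 9 of the 14 were above background, 7 were lower in Ect and 4 in Pme. Amn, Cubn, Lama1 and Rhox5 were lower in End, Ect and Pme alike. Sox7, a SOX factor of primitive endoderm and vessels, had 8.3 in End and 22.2 in SK7_ESC. Afp, alpha-fetoprotein, had 3.6 in End and 0.2 in SK7_ESC. All of these Sox7 and Afp signals were under background.

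The same factors separated End from the other germ layers. In End, 7 of the 8 were higher than in both Ect and Pme, where 1.86% of all genes were higher and 1.33% lower, and the median log2 ratio of the 8 was 2.85. Sox17 was at least 58.8-fold (at least 36.6-fold with the geometric mean of its probe sets), Foxa1 at least 16.6-fold, Hhex at least 15.8-fold, Foxa2 15.0-fold and Foxa3 at least 3.47-fold higher than in the brighter of Ect and Pme. Gata4 at 2.51-fold and Gata6 at 2.45-fold were the smallest, and for both the brighter array was Pme. With the geometric mean of its probe sets Gata6 was at 1.98 and was not called. Hnf4a, at a ratio of at least 1.74, was called neither. Of the genes called in this comparison, 58.3% were higher in End, and 68.8% after scaling to the same median.

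In Ect, 0 of the 8 factors were higher and 0 lower than in SK7_ESC, where 6.63% of all genes were higher and 4.89% lower. In Pme, Gata6 was 6.74-fold higher than in SK7_ESC, the other seven were neither, and 6.75% of all genes were higher and 4.55% lower. With the geometric mean of its probe sets Gata6 was at least 2.64-fold higher. Gata4 in Pme came to at least 1.97-fold. The comparisons of End, Ect and Pme with SK7_ESC share that array. Of the genes called, 57.6% were higher in Ect and 59.8% in Pme, against 41.7% and 43.2% after scaling to the same median. Pme also carried 4 of 8 cardiac mesoderm genes above background, near the 47.4% of all genes, against 2 of 8 in End. These 4, Hand1, Hand2, Tbx20 and Isl1, were higher in Pme than in SK7_ESC. Hand2, a factor of the heart field, was the brightest, at 820.8 in Pme and 3.0 in SK7_ESC. Nkx2-5, Tbx5, Mef2c and Myocd were under background in Pme. Myocd went the other way, at 281.0 in End with its main probe set, and was higher there than in both Ect and Pme. The other Myocd probe set had 49.6 in End, under background, and was not called. The part of the cardiac mesoderm genes in the Gata6 signal was not tested.

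Among adult tissues the factors marked Liver. In Liver, 6 of the 8 were higher than in both Brain and Sk_muscle, where 7.71% of all genes were higher and 4.19% lower, and the median log2 ratio of the 8 was 2.02. Hnf4a was at least 21.1-fold, Hhex at least 13.1-fold, Foxa3 at least 7.66-fold, Foxa1 at least 4.17-fold, Gata6 at least 3.93-fold and Foxa2 at least 3.66-fold higher. Hnf4a was at least 7.14-fold higher after quantile normalization and at least 6.76-fold higher without probe sets that may share sequence. Gata6 was not called with the geometric mean of its probe sets (at least 1.28). Gata4 and Sox17 were the exceptions. Gata4 had a ratio of at least 1.02, and Sox17 was under background in Liver and at least 6.06-fold higher in Sk_muscle than in Liver with its main probe set. With the other, 8.3 in Liver and 82.0 in Sk_muscle, the ratio of Liver over Sk_muscle was at most 0.610 and did not reach 2-fold.

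Sox17 is also a factor of arterial endothelium. Of the 11 endothelial genes, 8 were above background in Liver, 3 in Brain and 10 in Sk_muscle. The summed signal of the 11 was 2073 in Liver, 361.9 in Brain and 1898 in Sk_muscle. Their median signal was 78.8 in Liver, 22.9 in Brain and 134 in Sk_muscle. Sox18, the SOX factor of vessels, had 29.1 in Liver, 38.1 in Brain and 161.8 in Sk_muscle, and Pecam1, an adhesion molecule of endothelium, had 50.3 in Liver, 38.7 in Brain and 443.6 in Sk_muscle. Clec4g and Stab2, receptors of the liver sinusoid, had 1059.2 and 285.9 in Liver, a large part of its sum. The part of the endothelium in the Sox17 signal was not tested. In Sk_muscle, 4 of 20 hepatocyte genes were above background, a smaller share than the 43.3% of all genes there. Alb was among them at 303.9, while Hnf4a was at 13.4.

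Close relatives and partners of the factors were mostly low. Gata1, the GATA factor of red blood cells, had 31.6 in Liver, 112.5 in End and 12.7 in SK7_ESC. Zfpm1, which encodes the GATA partner FOG1, had 187.0 in Liver, 182.1 in End and 19.3 in SK7_ESC with its main probe set. By that probe set it was the one of the 9 listed genes that was higher in Liver than in both other tissues. The other Zfpm1 probe set had 29.1 in Liver, 50.7 in End and 13.0 in SK7_ESC, and was not called higher in Liver. Sox7, Sox18, Gata5 and Hnf4g were under background in both Liver and End. Of 6 transcription factors of pancreas and gut, 0 were above background in Liver or in End, and Pdx1, whose promoter drives the reporter of the line, had 0.6 in End.

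The patterns of the 8 factors over the 7 arrays were compared by the root mean square difference of their log2 signals, with signals under 50 raised to 50 and each gene centred. Of the 28 pairs, Foxa1 and Foxa2 were the most alike (0.17) and Sox17 and Hnf4a the least (2.67). Hhex was closest to Foxa1 (0.59), and Foxa3 to Hnf4a (0.67). These values describe 7 arrays that share 1 scaling, and genes that are bright in 1 array only are alike by that alone.

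Among 12126 named genes, the nearest to Foxa1 was Foxa2 itself, and the nearest to Foxa2 was Foxa1. Slc39a8, a zinc and manganese transporter, and Gpc4, a cell surface proteoglycan, came next for both, at 0.22 and 0.51 from Foxa1 and at 0.26 and 0.46 from Foxa2. For Sox17 the nearest were Cd55 (0.59), an inhibitor of complement, Flt1 (0.86), a VEGF receptor, and Otx2 (0.88), a homeobox factor. For Gata6 they were Bmp2 (0.45), a secreted signal of the TGF-beta family, Dsp (0.53), a desmosome protein, and Tes (0.58).

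Hhex was nearest to Ang (0.34), a secreted ribonuclease, then to Foxa1 (0.59) and Akr1c19 (0.61). Gata4 was nearest to Ror1 (0.13), a receptor for Wnt, Vangl1 (0.22), of planar cell polarity, and Lrrc1 (0.24). Foxa3 was nearest to Lcp1 (0.14), Cmtm8 (0.17) and P2rx4 (0.18), and Hnf4a to Abhd14b (0.12), Ppp1r3b (0.15), a subunit that directs a phosphatase to glycogen, and Psen2 (0.18).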

How the data were processed

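Total RNA of 7 samples was hybridized to Affymetrix mouse arrays with 45101 probe sets. The deposited values are linear signal intensity values, which the authors normalized globally to an average of 100. Without the highest and lowest 2% of probe sets, the mean was between 99.95 and 99.97. The sources used here do not give how the probes of a set were summarised, and the labels and the methods name different RNA kits. The platform annotation lists 35890 probe sets, of which 34958 have 1 symbol and 932 several, and 9211 are unnamed here. By Entrez identifier 34754 were matched to RefSeq (GRCm38.p6), and 0 symbols changed.

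With 1 array per group, calls rest on size alone. The script that makes the calls was tested on simulated data, which checks the computation and not the error of the calls. Named genes are all 8 factors with every probe set, up to 4 genes of each list with the largest ratios, genes called the other way, and the 3 nearest patterns, leaving out predicted genes. Others (Alb, Cer1, Cxcr4, Hand2, Sox7, Afp and vessel and pluripotency genes among them) were chosen after their values were seen. The members and lists were chosen with earlier results of these data known. Trf, Spp1 and some other genes of the lists were not analysed here. Alternatives were quantile normalization, an equal median for all arrays, a background of 20, a 3-fold rule, the geometric mean over probe sets, and omission of probe sets that may share sequence. The software was Python 3.11.15 (matplotlib 3.10.9, pandas 2.3.3, scipy 1.17.1, numpy 2.4.6).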

Additional observations from a re-analysis of the deposited data

How the results depend on the processing

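Of 288 ratios of single factors under these alternatives, 268 kept their call, 14 became called, 6 were no longer called and 0 reversed. Of 107 counts, 92 stayed within 1.5 times. With a background of 20, 4 factors were above it in Ect, 5 in Pme and 3 in Brain. In Liver, 1 was then lower than in both Brain and Sk_muscle (Sox17, by at least 2.69-fold). Against SK7_ESC, Ect then had 1 higher and 2 lower and Pme 3 higher and 2 lower. Hnf4a was then at least 4.34-fold higher in End than in SK7_ESC. After quantile normalization, 0 were above background in Brain, as after scaling to the same median and with the geometric mean, which left 1 in SK7_ESC. After scaling to the same median, 1 factor was higher in Liver than in End, as under the 3-fold rule. With that scaling 2 were higher in Pme over SK7_ESC, and Hnf4a was at least 2.02-fold higher in End than in SK7_ESC. Gata6, with the geometric mean, was not called in End over both Ect and Pme (1.98). Nor was it in Liver over both Brain and Sk_muscle (at least 1.28). Under the 3-fold rule Gata4 (2.51) and Gata6 (2.45) were not called in End over both Ect and Pme. The causes were not tested. No paired analysis was possible because each group has 1 array. Signals near 50 limit the calls of Gata4 in Liver and Hnf4a in End.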
